A study of Mus musculus with 36 samples.

Results

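Neutrophils of the injured mouse heart made up 113 of 3146 wells that held at least 1000 UMIs (unique molecular identifiers, the tags that count captured transcripts). A well, filled with a single sorted cell, was taken as a neutrophil when S100a8 and S100a9 together made up at least 1% of its UMIs and a sum of 8 macrophage genes (Lyz2, Ctss, C1qa, C1qb, C1qc, Cd68, Csf1r and Mrc1) was below 1.5%. Of these wells, 83 of 502 came from hearts at day 1 after ischemia-reperfusion (IR) and 30 of 721 from hearts at day 3 after myocardial infarction (MI). No well of the other groups passed, with 0 of 432 wells of sham day 1, 0 of 407 of sham day 14, 0 of 608 of IR day 3 and 0 of 476 of IR day 14. The 10 genes of this choice are therefore given as a description only, with no test.

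The cells came from the left ventricle of C57BL/6 male mice of 8 weeks of age, taken from the infarcted region or its counterpart in sham-operated hearts, and were processed by SORT-seq, in which living single cells are sorted by scatter into the wells of a plate. In the IR groups the left anterior descending artery was tied for 1 hour and then reopened, with 9 plates at day 1, 7 at day 3 and 3 at day 14, next to sham-operated mice with 4 plates at day 1 and 8 at day 14. In the MI group the same artery was tied permanently, with 5 plates at day 3. The group at IR day 1 and the group at MI day 3 differed in the day, in the kind of ligation and in the series of plates, and these cannot be told apart. The MI plates outnumbered the mice that the methods name for that experiment, so some of them share a mouse, and no label says which mouse a plate came from. The p-values below take the plate as the replicate and may be too small.

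Neutrophils are short-lived granulocytes that leave the bone marrow and are among the first leukocytes to enter injured myocardium, where they release granule proteins, cytokines and oxidants and are later cleared by macrophages. S100a8 and S100a9 encode the subunits of calprotectin, a calcium- and zinc-binding complex that fills the neutrophil cytosol. Csf3r is the receptor for granulocyte colony-stimulating factor, Cxcr2 the receptor for CXCL chemokines that draws neutrophils into tissue, and Il1r2 a decoy receptor for interleukin-1.

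The start regions of 4 genes are printed here because S100a8 and S100a9 chose the wells, and Lcn2 and Retnlg were the granule genes with the smallest adjusted p between both groups. Each run covers 250 bases before to 50 bases after the start in RefSeq (GRCm38.p6), read 5′ to 3′ on the strand of the gene. The gene spans given further on are those of GENCODE on GRCm38, whose outermost start can lie apart from the RefSeq start used here. The windows lie at chr3:90668821-90669120 on the plus strand for S100a8, chr3:90695672-90695971 on the minus strand for S100a9, chr2:32387690-32387989 on the minus strand for Lcn2 and chr16:48872358-48872657 on the plus strand for Retnlg. Capitals mark the letters TTGCNNAA on either strand, a form of the recognition letters of C/EBP factors, which are known regulators of myeloid genes.
S100a8: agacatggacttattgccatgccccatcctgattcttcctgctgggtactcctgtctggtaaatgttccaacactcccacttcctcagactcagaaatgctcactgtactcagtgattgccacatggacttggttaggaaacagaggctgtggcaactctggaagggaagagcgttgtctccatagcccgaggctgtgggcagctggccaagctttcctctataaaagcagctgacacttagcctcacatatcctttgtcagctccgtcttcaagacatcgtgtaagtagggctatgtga
S100a9: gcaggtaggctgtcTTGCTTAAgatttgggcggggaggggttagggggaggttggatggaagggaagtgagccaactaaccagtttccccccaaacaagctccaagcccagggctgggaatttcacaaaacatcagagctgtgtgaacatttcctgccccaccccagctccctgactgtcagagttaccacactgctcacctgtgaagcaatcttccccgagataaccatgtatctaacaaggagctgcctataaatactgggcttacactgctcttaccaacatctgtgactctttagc
Lcn2: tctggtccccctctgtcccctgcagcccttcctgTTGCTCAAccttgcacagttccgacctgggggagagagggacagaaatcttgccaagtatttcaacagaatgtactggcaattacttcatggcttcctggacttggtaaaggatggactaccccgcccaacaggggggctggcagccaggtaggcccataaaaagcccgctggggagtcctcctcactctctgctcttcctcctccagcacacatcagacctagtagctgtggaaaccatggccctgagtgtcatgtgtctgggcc
Retnlg: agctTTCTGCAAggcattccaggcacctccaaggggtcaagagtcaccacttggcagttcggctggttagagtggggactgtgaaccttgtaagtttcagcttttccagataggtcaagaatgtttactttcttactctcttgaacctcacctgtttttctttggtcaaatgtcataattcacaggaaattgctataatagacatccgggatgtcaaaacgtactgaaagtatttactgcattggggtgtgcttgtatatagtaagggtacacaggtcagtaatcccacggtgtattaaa
Counted from the start, the letters began at position -236 in S100a9, -216 in Lcn2 and -246 in Retnlg, and were absent from the S100a8 window. They were also absent from the windows of Chil3, Ccl6, Mxd1, Csf3r, Il1r2 and Cxcr2 and from the 3 windows of Il1rn. Of all 32851 windows of 300 bases in that table, 3547 (10.8%) held these letters, so that a match is common and describes the sequence only.

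Wells classed as neutrophils by the S100 limit formed a larger share at IR day 1 than at MI day 3, and none lay in the other groups. The share at IR day 1 was 16.9% ± 4.64 (SD, n = 9 plates), with 12% on the lowest plate, 16.1% as the median and 25% on the highest. At MI day 3 it was 4.16% ± 0.54 (SD, n = 5), with 4.70%, 4.61%, 3.49%, 4.29% and 3.70% on replicates 1 to 5. Every IR day 1 plate thus lay above every MI day 3 plate, and the plot of the share per plate shows the gap between them.

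**Figure D1:**
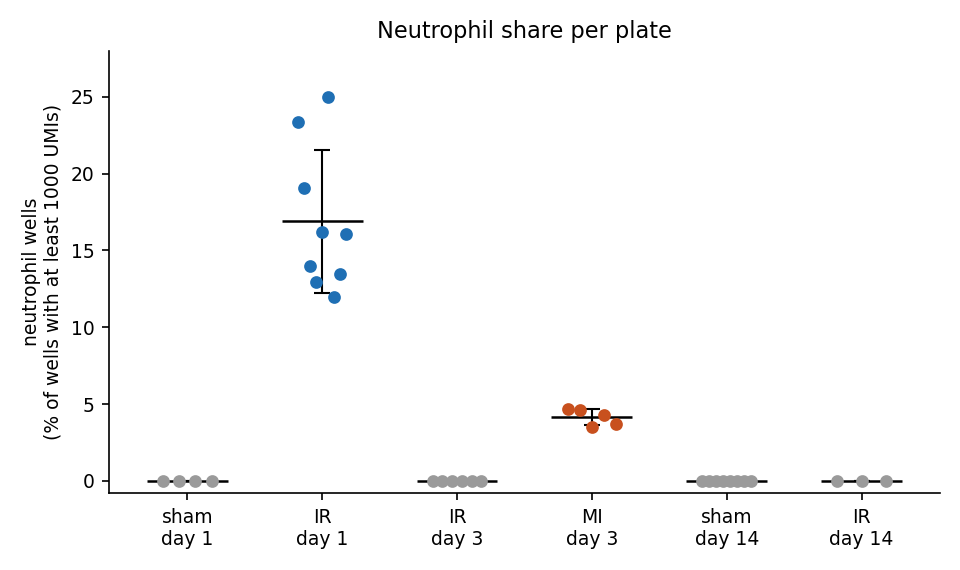
Neutrophil wells as a percentage of wells with at least 1000 UMIs, 1 point per plate with at least 10 such wells, with the mean (line) and SD (bar) of each group. The 9 IR day 1 plates sit between 12% and 25%, the 5 MI day 3 plates between 3.49% and 4.70%, and all other plates at 0.

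The difference of MI day 3 minus IR day 1 was -12.75 percentage points (exact permutation test over plates, two-sided, p = 0.000999, adjusted p = 0.00167 over 5 share comparisons), the smallest p that these numbers of plates allow. The share counts wells past the S100 limit. The median S100 share of these wells was 3.05% at IR day 1 and 1.94% at MI day 3. Under the macrophage limit, 16 wells at IR day 1 and 19 at MI day 3 held 0.5% to 1% of both S100 genes. A difference in S100 level per cell thus enters this share as well, and its part was not tested. The 4 sham day 1 plates and the 6 IR day 3 plates with at least 10 wells were all at 0. Since the rule for choosing the wells already named IR day 1 and MI day 3 as the groups that should hold them, the values of the other groups are a description, and no p is given for them.

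At these numbers of wells, 0 neutrophils allowed a share of up to 0.694% at sham day 1, 0.737% at sham day 14, 0.493% at IR day 3 and 0.630% at IR day 14, which covers counting error only. The largest summed share of S100a8 and S100a9 in a well outside both groups was 0.774% at sham day 1, 0.365% at IR day 3, 0.0148% at sham day 14 and 0 at IR day 14. S100 transcripts were thus seen in 11 wells of IR day 3, none of which reached the limit.

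A share depends on which other cells were sorted and passed the depth limit. Wells with at least 1000 UMIs had a median of 3113 UMIs at IR day 1 and 13120 at MI day 3. Among neutrophil and macrophage wells alone, where macrophage wells were those with at least 1.5% of the 8 macrophage genes and under 1% of both S100 genes, neutrophils made up 87.4% ± 15.1 (SD, n = 9) at IR day 1, with a range of 60.0% to 100%. They made up 32.3% ± 7.35 (SD, n = 5) at MI day 3, with 25%, 35.0%, 37.5%, 24.0% and 40% on replicates 1 to 5. The difference was -55.1 points (exact permutation p = 0.000999, adjusted p = 0.00167), and fewer neutrophils and more macrophages cannot be told apart in it. With a limit of 3% for both S100 genes, the difference in share of all cells between MI day 3 and IR day 1 was -7.45 points, and that between MI day 3 and IR day 3 was 1.27 points.

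The neutrophil wells stood apart from macrophage wells by the measures that chose them. No well passed both the S100 limit and the macrophage limit. Inside the S100 limit the nearest wells held 1.003%, 1.045% and 1.063%, and outside it 0.988%, 0.995% and 0.995%. The median summed S100 share was 3.05% of the UMIs of a neutrophil well at IR day 1, up to 20.1%, and 1.94% at MI day 3, up to 4.61%. The median of the macrophage genes was 0.0430% and 0.181%, with 0.973% and 0.766% as the highest.

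**Figure D2:**
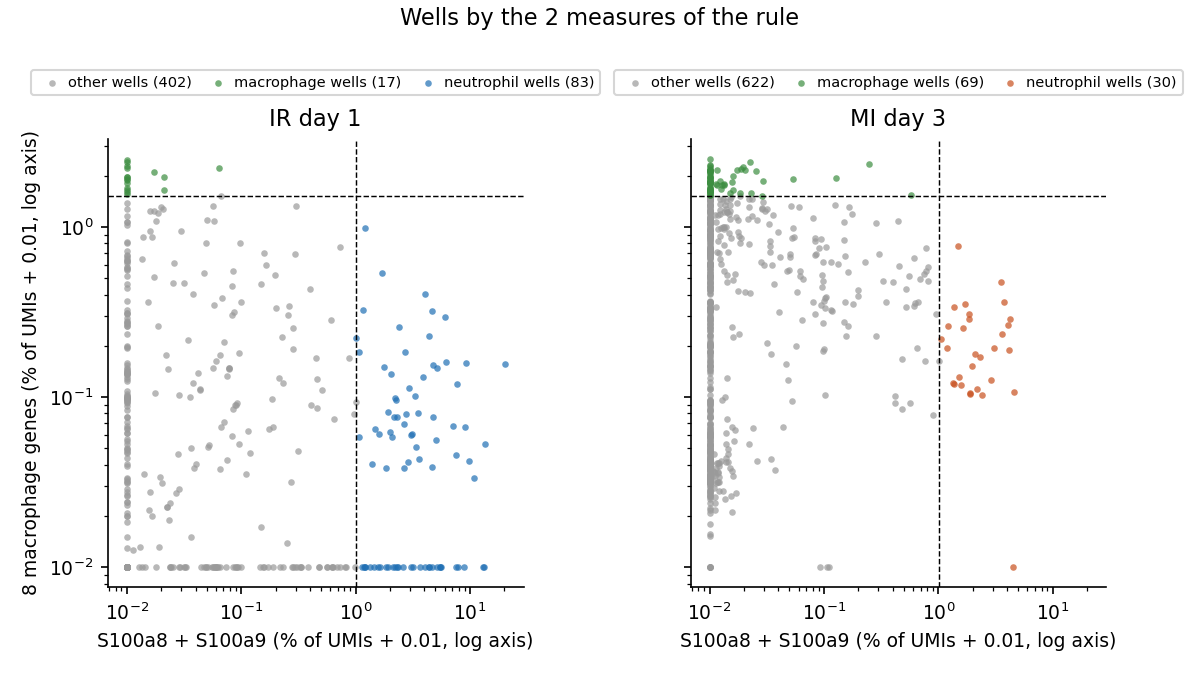
Each point is a well with at least 1000 UMIs at IR day 1 (left) or MI day 3 (right), by its summed share of S100a8 and S100a9 and of the 8 macrophage genes, both on log axes after 0.01 was added, with the limits as dashed lines. The 83 and 30 neutrophil wells fill the lower right, the 17 and 69 macrophage wells the upper left, and the upper right is empty.

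The levels of S100a8 and S100a9, which chose the wells, varied between the plates of each group. S100a8, at chr3:90668978-90670035 on the plus strand, lay between 11080 and 28980 CPM (UMI counts of the summed neutrophil wells of a plate, scaled to the same total for every plate) on the IR day 1 plates, with a median of 19590. On MI day 3 replicates 1 to 5 it lay at 9215, 12110, 9749, 12240 and 9496 CPM. S100a9, at chr3:90692632-90695721 on the minus strand, ranged from 13220 to 27490 CPM with a median of 19330 at IR day 1. Its values at MI day 3 were 8930, 12020, 11250, 16880 and 8966 CPM. The ratio of S100a8 to S100a9 UMIs per plate ran from 0.745 to 1.40 at IR day 1 (median 1.06) and from 0.726 to 1.06 at MI day 3 (median 1.01), so the spans of both groups overlapped.

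The neutrophil label was checked with markers that the choice did not use. Of the 15 markers listed, 14 had values and 12 remained to be tested after both S100 genes were set aside. To compare how many wells held a UMI, each well was thinned to 1000 UMIs, since depth differed. Il1r2 was then seen in 84.3% of neutrophil wells at IR day 1 (95% exact binomial interval 74.7% to 91.4%) and in 70.0% at MI day 3 (50.6% to 85.3%). Csf3r was seen in 79.5% and 83.3%, Cxcr2 in 72.3% and 80.0%, Mmp9 in 72.3% and 83.3% and Trem1 in 66.3% and 70.0%. In macrophage wells thinned to the same depth these 5 genes were seen in 0% to 5.88% at IR day 1 and in 0% to 10.1% at MI day 3. They were thus common among neutrophil wells of both groups and rare among macrophage wells at this depth. Without thinning, the deeper macrophage wells held Csf3r in 52.9% at IR day 1 and 55.1% at MI day 3. Cxcr2 was seen there in 35.3% and 58.0%, Trem1 in 5.88% and 39.1%, Mmp9 in 5.88% and 36.2% and Il1r2 in 11.8% and 15.9%. Thinned wells of neither class held Cxcr2 in 22.1% and 10.8%, and the other genes in 6.11% to 10.45%.

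The remaining markers were seen in smaller shares of wells than these 5, apart from Lcn2 at IR day 1. Lcn2 was seen in 68.7% (57.6% to 78.4%) at IR day 1 and 30.0% (14.7% to 49.4%) at MI day 3, and 1100001G20Rik (Wfdc21) in 53.0% (41.7% to 64.1%) and 13.3% (3.76% to 30.7%). Hdc was seen in 50.6% and 20%, G0s2 in 44.6% and 26.7%, Retnlg in 39.8% and 33.3%, Slpi in 31.3% and 33.3% and Mmp8 in 20.5% and 6.67%. In macrophage wells Lcn2 and 1100001G20Rik were each seen in 0 of 17 at IR day 1 and in 4.35% at MI day 3. Without thinning, neutrophil wells held Il1r2 in 86.8% and 90.0%, Lcn2 in 80.7% and 53.3% and 1100001G20Rik in 68.7% and 30.0%. Wells of 1 plate share their source, so these shares describe the wells and were not tested.

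Both groups of neutrophil wells differed in depth and in mitochondrial reads. The median was 2142 UMIs and 935 genes per neutrophil well at IR day 1 and 2714 UMIs and 1349 genes at MI day 3. Thinned to 1000 UMIs, the median was 549 genes at IR day 1 and 665 genes at MI day 3. Mitochondrial transcripts, which were left out of all sums, had a median share of 27.5% at IR day 1 and 10.7% at MI day 3. Rn45s, a ribosomal RNA row, took a median of 1.78% and 1.89%. On IR day 1 replicate 9, 17 wells resembled the wells at the same positions of replicate 5 (median r = 0.448 over 3000 genes after centring) and 6 those of replicate 8, and 1 of these was a neutrophil well. Without such wells the neutrophil shares still did not overlap between MI day 3 and IR day 1, and 30 genes passed the gene test given below in place of 32.

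Transcripts of other cells in the neutrophil wells differed between both groups. Fibroblast markers took 0.0414% to 0.235% of neutrophil UMIs per plate at IR day 1 (8 genes, median 0.105%) and 0.278% to 0.708% at MI day 3 (median 0.379%), with no overlap. Macrophage markers outside the rule (16 genes) took 0.0230% to 0.227% at IR day 1, where Cd163, Ms4a7, Gpnmb and Trem2 were at 0, and 0.195% to 1.83% at MI day 3, where Lyve1 was at 0. The highest value, 1.83%, was that of MI day 3 replicate 5. In the macrophage wells of the same plates these genes took at least 1.04% of the UMIs.

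For markers of muscle, vessels and red cells the plates of both groups overlapped, and the medians were higher at IR day 1. Cardiomyocyte markers (11 genes) took 0.0396% to 0.750% of neutrophil UMIs at IR day 1 (median 0.238%) and 0.0163% to 0.178% at MI day 3 (median 0.0541%). Endothelial markers (8 genes) took 0.0131% to 0.424% (median 0.0554%) and 0.00338% to 0.0309% (median 0.0111%), with Egfl7 and Kdr at 0 at MI day 3. Erythrocyte markers reached 0.148% on an IR day 1 plate and 0.0133% on an MI day 3 plate. Markers of B cells stayed at or below 0.00557% and those of T or NK cells at or below 0.00866%. The part of these transcripts in the gene differences below was not tested.

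Gene levels were compared over UMIs summed per plate, from 12635 to 41914 neutrophil UMIs on the 9 IR day 1 plates and 17950 to 32278 on the 4 MI day 3 plates with at least 5 neutrophil wells. MI day 3 replicate 5 held 4 neutrophil wells and did not enter the test, and its value is named apart. Of 2799 genes tested, 32 (1.14%) differed at an adjusted p under 0.05 (edgeR quasi-likelihood test, Benjamini-Hochberg), 11 of them higher (0.393%) and 21 lower (0.75%) at MI day 3. An unadjusted p under 0.05 was reached by 332 genes (11.9%), and plate values of both groups did not overlap for 38 genes (1.36%). Over the 2799 genes the log2 fold changes had a median of 0.02. The count filter was applied to both groups together. Cish, Tnni3, Egfl7, Beta-s, Gpihbp1, Lipg and Chi3l1 passed it through IR day 1 alone, with 0 UMIs on the tested MI day 3 plates. Ltc4s and Trem2, at 0 at IR day 1 and at 105 and 76.7 CPM at MI day 3, did not pass it. Counts of genes lower at MI day 3 thus depend in part on this filter. Of the called genes, the tested plates of both groups did not overlap for Col1a2, Apoe, Bgn, Rpl4 and Rps21, which were higher at MI day 3, and for Cish, Slc7a11 and Mxd1, which were lower.

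The number of calls depended on single plates and on depth. It was 14, 12, 9 and 8 without MI day 3 replicates 1, 2, 3 and 4, and 48, 49, 21, 21 and 20 without IR day 1 replicates 2, 3, 4, 7 and 9. With wells of at least 2000 UMIs, which left 3 and 6 plates, it was 0, with 153 genes at an unadjusted p under 0.05.

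**Figure D3:**
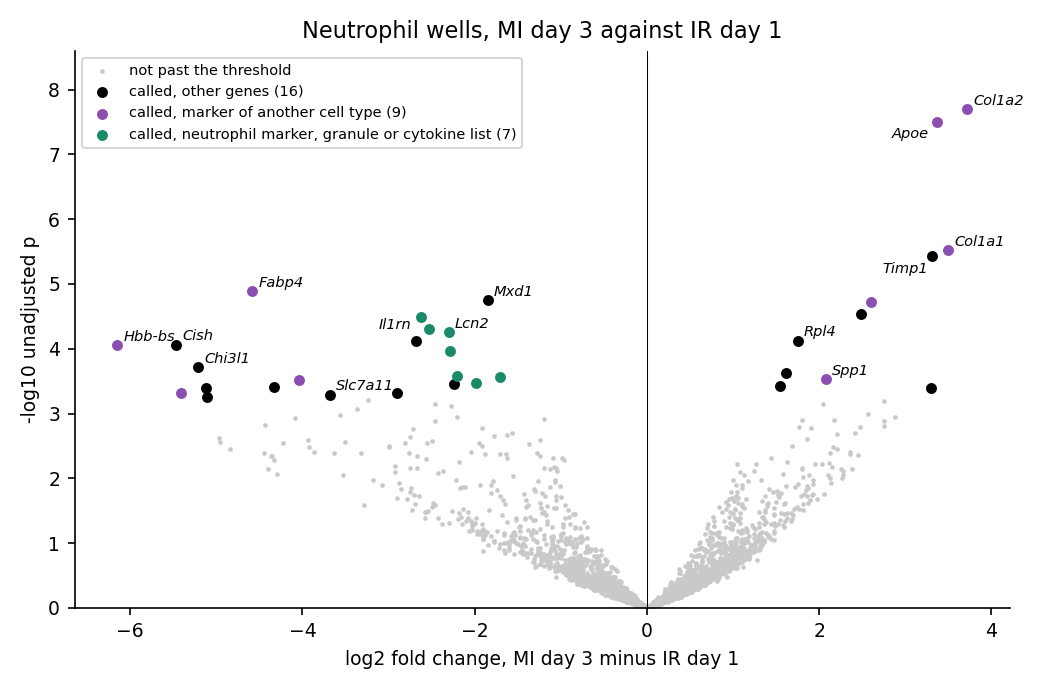
Each point is 1 of 2799 genes, by its log2 fold change between MI day 3 and IR day 1 in neutrophil wells and the -log10 of its unadjusted p (edgeR). The 32 called genes are coloured by list: 9 are markers of another cell type, 7 belong to the neutrophil marker, granule or cytokine lists (all 7 lower at MI day 3), and 16 to neither. Hbb-bs stands for Beta-s.

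Surface receptors and proteases that mark neutrophils did not pass the test. Il1r2 lay between 609 and 8284 CPM at IR day 1 (median 2921) and at 3180, 2076, 1950 and 2164 CPM on MI day 3 replicates 1 to 4 (2385 on replicate 5). Its log2 fold change was -0.57 (SE 0.41, adjusted p = 0.655). Csf3r, at chr4:126024550-126044440 on the plus strand, lay between 928.5 and 3219 CPM (median 2374) and at 1672, 1177, 1838 and 3551 CPM (1192 on replicate 5), with a log2 fold change of -0.08 (SE 0.36, adjusted p = 0.968). The spans of both groups overlapped for these receptors.

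Cxcr2, the chemokine receptor, lay between 870.7 and 2855 CPM at IR day 1 (median 1443) and at 1549, 1053, 1616 and 1015 CPM at MI day 3 (574 on replicate 5), a log2 fold change of -0.30 (SE 0.35, adjusted p = 0.823). Mmp9, the gelatinase stored in tertiary granules, lay between 1328 and 4785 CPM (median 2681) and at 1549, 2045, 2396 and 3077 CPM (1855 on replicate 5), a log2 fold change of -0.19 (SE 0.35, adjusted p = 0.904). Trem1, a receptor that amplifies inflammatory signals, had a log2 fold change of 0.21 (SE 0.35, adjusted p = 0.889). The groups overlapped for each of these genes. G0s2, an inhibitor of triglyceride breakdown, had a log2 fold change of -0.37 (SE 0.38, adjusted p = 0.791), Hdc, the enzyme that makes histamine, one of -1.06 (SE 0.47, adjusted p = 0.321), Mmp8, neutrophil collagenase, one of -0.80 (SE 0.61, adjusted p = 0.681) and Slpi, an inhibitor of serine proteases, one of -0.02 (SE 0.44, adjusted p = 0.994). The sign of Slpi turned to 0.01 with another scaling, and no direction is given for it.

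Il1b, which encodes interleukin-1 beta, was among the transcripts seen in nearly all neutrophil wells, with 96.4% of wells at IR day 1 and 100% at MI day 3 after thinning. It lay between 6863 and 13530 CPM at IR day 1 (median 8980) and at 7951, 11030, 9192 and 12720 CPM on MI day 3 replicates 1 to 4 (7508 on replicate 5). Its log2 fold change was 0.07 (SE 0.31, adjusted p = 0.963), and the groups overlapped.

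Lcn2, Retnlg and Chi3l3, 3 of the 10 granule genes tested, and the marker 1100001G20Rik were lower at MI day 3. Lcn2 (lipocalin-2, an iron-siderophore binding protein of specific granules, chr2:32384633-32388252, minus strand) lay between 317 and 4832 CPM at IR day 1 (median 2702) and at 285, 558, 223 and 1082 CPM on MI day 3 replicates 1 to 4 (442 on replicate 5). Its log2 fold change was -2.30 (SE 0.51, adjusted p = 0.0139). The lowest IR day 1 plate fell within the MI day 3 span and the other 8 lay above it. Retnlg (resistin-like gamma, chr16:48872621-48874496, plus strand) lay between 435 and 7502 CPM (median 1621) and at 530, 155, 390 and 1015 CPM (751 on replicate 5), with a log2 fold change of -2.29 (SE 0.54, adjusted p = 0.0188). 1100001G20Rik, now named Wfdc21, a small secreted protein with a WAP domain, lay between 382 and 2722 CPM (median 1201) and at 204, 62.0, 55.7 and 474 CPM (from 1 UMI at its lowest, and 1 UMI on replicate 5), with a log2 fold change of -2.62 (SE 0.56, adjusted p = 0.0101). For both genes the spans overlapped at their edges.

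Chi3l3, now named Chil3, a chitinase-like lectin, lay between 952 and 8975 CPM at IR day 1 (median 2928) and at 1794, 589, 1003 and 643 CPM at MI day 3 (265 on replicate 5), with a log2 fold change of -1.99 (SE 0.51, adjusted p = 0.041). It has close paralogs with which reads may be shared, so its count is uncertain. Of the 18 granule genes listed, 10 were tested, and 0 were higher and 3 lower (Lcn2, Retnlg and Chi3l3), with 5 at an unadjusted p under 0.05 and a median log2 fold change of -1.40. Of all genes tested, 0.75% were lower and 11.9% had an unadjusted p under 0.05. Of the 15 neutrophil markers, 12 were tested, and 0 were higher and 3 lower (1100001G20Rik, Lcn2 and Retnlg), with a median of -0.47. Cd177, a surface antigen of specific granules, had a log2 fold change of -4.09 (SE 1.18, adjusted p = 0.0761). The granule count was 5 without IR day 1 replicate 1, 2 or 3, 1 without MI day 3 replicate 1 and 0 with wells of at least 2000 UMIs, where the median was -0.57. Without MI day 3 replicate 2 or 3, 0 of the granule genes and 0 of the neutrophil markers passed, and Lcn2 and Retnlg also missed the threshold without replicate 1.

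Of the cytokines and chemokines, 3 of 13 tested were lower at MI day 3, and 9 had an unadjusted p under 0.05. Among all genes tested, 0.75% were lower and 11.9% had an unadjusted p under 0.05. Il1rn (the interleukin-1 receptor antagonist, chr2:24336853-24351494, plus strand) lay between 348 and 4907 CPM at IR day 1 (median 1473) and at 40.8, 527, 223 and 440 CPM on MI day 3 replicates 1 to 4 (133 on replicate 5). Its log2 fold change was -2.53 (SE 0.56, adjusted p = 0.0139). Osm (oncostatin M, a cytokine that acts on cardiomyocytes and fibroblasts) lay between 144 and 1583 CPM (median 797) and at 81.6, 248, 111 and 169 CPM (44.2 on replicate 5), with a log2 fold change of -2.21 (SE 0.56, adjusted p = 0.0378). Both were lower at MI day 3, with 1 or more IR day 1 plates inside its span.

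Ccl6, a myeloid chemokine, lay between 866 and 7104 CPM at IR day 1 (median 2386) and at 897, 960, 1003 and 778 CPM at MI day 3 (1502 on replicate 5), with a log2 fold change of -1.70 (SE 0.43, adjusted p = 0.0378). Of 19 genes listed, 13 were tested, and 0 were higher and 3 lower, with a median log2 fold change of -1.70. Among all genes tested, 0.393% were higher and 0.75% lower. Ccl4, an inflammatory chemokine, had -2.46 (SE 0.67, adjusted p = 0.0559) and Ccl3 had -2.72 (SE 0.81, adjusted p = 0.0873), both outside the threshold. Cxcl2, a ligand of CXCR2, had -1.77 (SE 0.54, adjusted p = 0.105). The count of 3 rested on single plates and on the setting. It was 7 without IR day 1 replicate 2 or 3, 1 without IR day 1 replicate 8 or MI day 3 replicate 2, and 0 without MI day 3 replicate 1, 3 or 4. It was 6 with plates of at least 3 wells, 5 with wells under 0.5% of macrophage genes, and 0 with the replicate block or with wells of at least 2000 UMIs. Osm and Ccl6 missed the threshold without any 1 of the 4 MI day 3 plates, and Il1rn without replicate 1, 3 or 4.

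**Figure D4:**
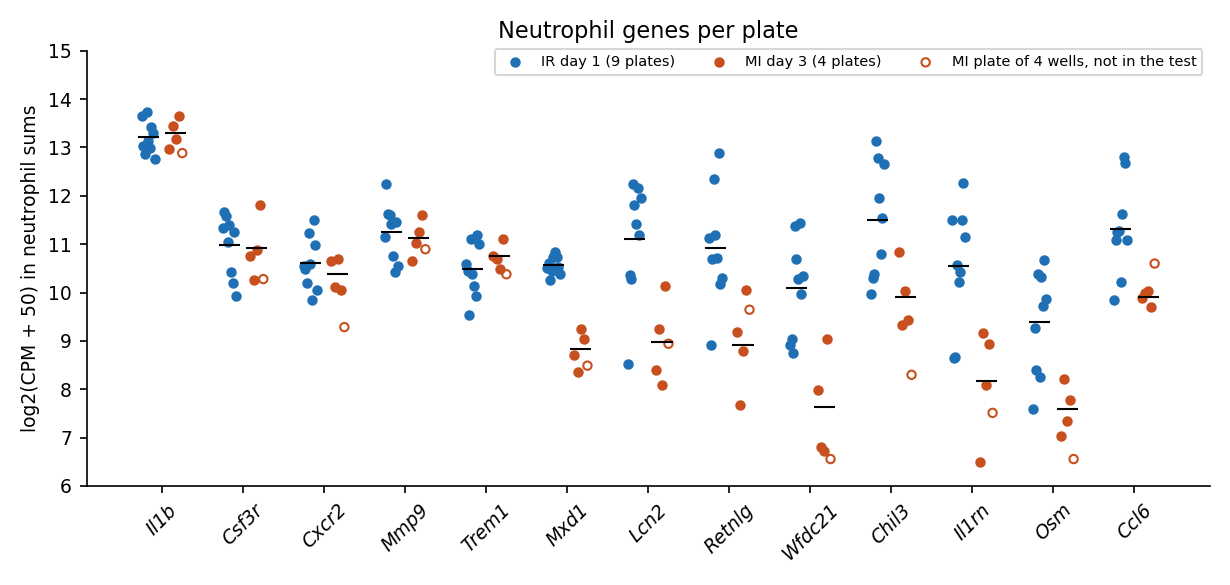
Level of 13 genes in the neutrophil sum of each plate, as log2(CPM + 50), with 1 point per plate and a line at the mean of the tested plates. The first 5 genes (Il1b to Trem1) overlap between both groups, the 4 tested MI day 3 plates lie below all IR day 1 plates for Mxd1, and the other 7 genes are lower at MI day 3 with overlap between the groups.

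Mxd1 was lower at MI day 3 on every plate. It encodes a MAX-binding repressor that opposes MYC, is known from maturing granulocytes and lies at chr6:86647042-86669161 on the minus strand. It ranged from 1169 to 1772 CPM on the IR day 1 plates (median 1425) and lay at 367, 279, 557 and 474 CPM on MI day 3 replicates 1 to 4 (309 on replicate 5). The highest MI day 3 plate was thus below the lowest IR day 1 plate. The log2 fold change was -1.85 (SE 0.38, adjusted p = 0.00758), and the gene passed the threshold in 24 of 26 alternative settings, missing it without MI day 3 replicate 2 and with wells of at least 2000 UMIs.

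Cish, a feedback inhibitor of cytokine signalling through STAT5, lay between 43.5 and 730 CPM at IR day 1 (median 144) and was at 0 on all MI day 3 plates. Against a floor of 3 counts over the MI day 3 plates it was at least 6.3-fold lower (adjusted p = 0.0166). Slc7a11, a cystine transporter, lay between 42.6 and 396 CPM (median 184) and at 40.8, 0, 0 and 0 CPM (44.2 on replicate 5), with a log2 fold change of -3.68 (SE 0.98, adjusted p = 0.0459). Both genes rest on few UMIs, 42 in all for Cish at IR day 1, and both missed the threshold without any 1 of the 4 MI day 3 plates.

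Some markers of fibroblasts (3 of 5 tested) and macrophages (2 of 7 tested) were higher in the neutrophil wells of MI day 3, beside the marker shares above. Among all genes tested, 0.393% were higher. Col1a2, a chain of type I collagen, lay between 0 and 218 CPM at IR day 1 (median 28.9) and at 1386, 434, 1448 and 913 CPM on MI day 3 replicates 1 to 4 (839 on replicate 5). Its log2 fold change was 3.72 (SE 0.54, adjusted p = 4.39e-05). Apoe, a lipid carrier that macrophages make in quantity, lay between 0 and 173 CPM (median 87.0) and at 1223, 1053, 724 and 676 CPM (2120 on replicate 5), with a log2 fold change of 3.37 (SE 0.50, adjusted p = 4.39e-05). Both passed in 25 of 26 alternative settings, missing with wells of at least 2000 UMIs. In wells thinned to 1000 UMIs, Apoe was seen in 8.43% of neutrophil wells at IR day 1 and 63.3% at MI day 3, in 94.1% and 100% of macrophage wells, and in 26.9% and 69.5% of the wells of neither class.

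Of 8 fibroblast markers 5 were tested, and Col1a2, Col1a1 (log2 fold change 3.50, SE 0.65, adjusted p = 0.0026) and Col3a1 (2.60, SE 0.54, adjusted p = 0.00758) were higher, with 0 lower and a median of 2.60. Of all genes tested, 0.393% were higher and 0.75% lower. Bgn, a proteoglycan of the extracellular matrix, lay between 0 and 218 CPM at IR day 1 (median 66.4) and at 408, 341, 669 and 474 CPM at MI day 3 (221 on replicate 5), with a log2 fold change of 2.48 (SE 0.53, adjusted p = 0.0101). Of 16 macrophage markers outside the rule 7 were tested, and Apoe and Spp1 (2.08, SE 0.53, adjusted p = 0.0382) were higher, with 0 lower and a median of 1.63. That median was 0.90 without MI day 3 replicate 2 and 2.37 without IR day 1 replicate 3, where 4 passed, and 1 passed without IR day 1 replicate 4, 5, 7, 8 or 9 or without MI day 3 replicate 2 or 4. Spp1, osteopontin, lay at 326, 3005, 390 and 609 CPM on MI day 3 replicates 1 to 4 and at 6846 CPM on replicate 5, against 0 to 596.5 CPM at IR day 1. With the neutrophil wells under 0.5% of these macrophage markers alone, an alternative chosen after seeing the data, 30 genes passed, Col1a2 among them. Without MI day 3 replicate 2 the log2 fold change of Spp1 was 0.68 and it missed the threshold.

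A few markers of muscle, vessels and red cells were lower in the neutrophil wells of MI day 3. All 11 cardiomyocyte markers were tested, 2 were lower (Tnni3 and Myl3), 9 had an unadjusted p under 0.05 and the median log2 fold change was -2.65 (-4.28 without MI day 3 replicate 3), beside 0.75% lower and 11.9% at an unadjusted p under 0.05 among all genes tested. Myl3, a myosin light chain, had -4.04 (SE 1.03, adjusted p = 0.0382). Tnni3, cardiac troponin I, was at 0 on the 4 tested MI day 3 plates and at least 6.6-fold lower (adjusted p = 0.0453). Of 8 endothelial markers 6 were tested, and Fabp4, a fatty acid binding protein of capillaries, was lower at -4.58 (SE 0.93, adjusted p = 0.00711). It lay between 43.5 and 2786 CPM at IR day 1 (median 368) and at 0, 31.0, 111 and 0 CPM at MI day 3 (133 on replicate 5). Beta-s (Hbb-bs), a beta globin and the only erythrocyte marker tested, was at 0 on the 4 tested MI day 3 plates and at least 13-fold lower (adjusted p = 0.0166). Tnni3, Myl3 and Beta-s missed the threshold without any 1 of the 4 MI day 3 plates, as did Fabp4 without replicate 4. Without IR day 1 replicate 7, without the wells that resembled those of other plates, or with wells under 0.5% of the macrophage markers outside the rule, 0 cardiomyocyte markers passed. Tnni3, Egfl7 and Beta-s passed the count filter through IR day 1 alone, so the counts and medians here depend in part on that filter. Of 5 B cell markers and 6 T or NK cell markers with values, 0 could be tested.

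Ribosomal proteins Rpl4 and Rps21 were higher at MI day 3 without overlap. Rpl4 lay between 138 and 807 CPM at IR day 1 (median 266) and at 1101, 1084, 1393 and 1522 CPM at MI day 3 (1325 on replicate 5), with a log2 fold change of 1.75 (SE 0.40, adjusted p = 0.0164). Rps21 lay between 131 and 661 CPM (median 255) and at 1142, 775, 1170 and 676 CPM (1060 on replicate 5), with a log2 fold change of 1.61 (SE 0.40, adjusted p = 0.0373). Reads of processed copies of ribosomal protein genes may be shared with them. Rps21 missed the threshold in 12 of 26 alternative settings, among them without any 1 of the 4 MI day 3 plates, and Rpl4 without MI day 3 replicate 3 or 4.

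The other 10 called genes lay outside the naming rule and are named after their values were seen. Higher at MI day 3 were Timp1, an inhibitor of metalloproteinases (log2 fold change 3.31, adjusted p = 0.0026), Cd244, a receptor of the SLAM family (3.30, adjusted p = 0.041), and the ribosomal protein Rpsa (1.54, adjusted p = 0.041). Lower were Crispld2 (-2.68, adjusted p = 0.0164), Id1, an inhibitor of basic helix-loop-helix factors (-2.24, adjusted p = 0.041), the chaperone Cryab (-2.90, adjusted p = 0.0453) and the chemokine Cxcl12 (-4.33, adjusted p = 0.041). Chi3l1, a chitinase-like protein, Gpihbp1, which anchors lipoprotein lipase on capillaries, and Lipg, endothelial lipase, were at 0 on the tested MI day 3 plates and at least 5.6-fold, 6.3-fold and 5.0-fold lower (adjusted p = 0.0314, 0.041 and 0.0481). Id1, Cryab, Cxcl12, Rpsa, Chi3l1, Gpihbp1 and Lipg missed the threshold without any 1 of the 4 MI day 3 plates, Crispld2 without replicate 2, 3 or 4 and Timp1 without replicate 4. Cd244 passed in 9 of the 18 alternative settings that tested it. Cryab is abundant in cardiomyocytes. How these genes relate to the cardiomyocyte and endothelial shares given above was not tested.

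Lists of neutrophil function other than granule proteins and cytokines held 0 called genes. Of 17 chemoattractant receptors and adhesion molecules 16 were tested, with a median log2 fold change of -0.37 (-0.22 without IR day 1 replicate 7) and 3 genes at an unadjusted p under 0.05, beside 11.9% of all genes tested. Itgam, the alpha chain of the integrin Mac-1, lay between 901 and 2770 CPM at IR day 1 (median 1264) and at 652, 868, 557 and 643 CPM at MI day 3 (707 on replicate 5), without overlap but with an adjusted p of 0.161 (log2 fold change -1.08, SE 0.38). Selplg, the ligand of P-selectin, had -1.01 (SE 0.39, adjusted p = 0.223), Fpr2, a formyl peptide receptor, -0.84 (SE 0.39, adjusted p = 0.354) and C5ar1, the receptor of complement C5a, -0.89 (SE 0.44, adjusted p = 0.419). Of 8 genes of the NADPH oxidase, the source of the oxidative burst, 7 were tested, with a median of -0.25 and 0 at an unadjusted p under 0.05. That median was -0.02 without MI day 3 replicate 3 and -0.48 without MI day 3 replicate 1.

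Of 20 pattern recognition and Fc receptors 18 were tested, with a median of -0.42. Cd14, the co-receptor for lipopolysaccharide, had -1.57 (SE 0.48, adjusted p = 0.098), with 609 to 6905 CPM at IR day 1 and 1264, 2231, 334 and 304 CPM at MI day 3. Of 23 interferon-stimulated genes 12 were tested, with a median of -0.52 (-0.85 without MI day 3 replicate 4), and Isg20, an exonuclease, had -2.93 (SE 1.05, adjusted p = 0.169). Of 25 NF-kB targets and immediate early genes 22 were tested, with a median of -0.33 (-0.17 without MI day 3 replicate 1) and 5 at an unadjusted p under 0.05. Such a p was reached by 3 genes each of the pattern recognition and interferon lists, and by 11.9% of all genes tested. Nfkbia, the inhibitor of NF-kB, had -1.24 (SE 0.42, adjusted p = 0.13) and Ier3 -1.13 (SE 0.40, adjusted p = 0.162). Medians of these lists were below that of all genes, and none of their members passed the test as reported here, while 1 pattern recognition or Fc receptor passed without IR day 1 replicate 2 or MI day 3 replicate 2 and 1 interferon-stimulated gene with the replicate block. In addition, 1 such receptor passed with no filter beyond 1 UMI, with plates of at least 3 wells and with thinned wells. With wells under 0.5% of the macrophage markers outside the rule, 2 passed.

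Of 25 genes of glycolysis and hypoxia 22 were tested, with a median of 0.20, 14 above 0 and 2 at an unadjusted p under 0.05, next to 11.9% of all genes tested. Without MI day 3 replicate 1, 11 lay above and 11 below 0, and the median was 0.10 without MI day 3 replicate 4 and 0.07 with thinned wells. Ldha, lactate dehydrogenase A, lay between 0 and 1000 CPM at IR day 1 and at 1386, 558, 780 and 643 CPM at MI day 3 (2341 on replicate 5), with 0.84 (SE 0.47, adjusted p = 0.526). Of 20 genes of survival and cell death 13 were tested, with a median of -0.61 (-0.14 without IR day 1 replicate 1 or 4), and Fas, a death receptor, had -2.70 (SE 1.10, adjusted p = 0.263). Of 10 genes of antigen presentation 9 were tested, with a median of -0.83, which turned to 0.32 without IR day 1 replicate 2 (5 genes tested) and to 0.05 with thinned wells (4 genes tested). H2-Aa, an MHC class II chain, lay at 2088 CPM on IR day 1 replicate 2 and at or below 242 CPM on every other plate.

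A set of genes known from SiglecF-high neutrophils of infarcted hearts was listed as well, and 13 of its 15 genes were tested. None passed, and the median log2 fold change was -0.41. The sign of that median is not settled, since it was 0.46 with plates of at least 3 wells (1 gene higher), 0.47 with the replicate block, 0.59 with both, 0.30 with thinned wells and 0.04 with wells of at least 2000 UMIs. Without IR day 1 replicate 3, 1 gene passed and the median was -0.48. Siglec5 (Siglecf in current names), a sialic acid receptor, lay between 0 and 119 CPM at IR day 1 (median 42.6) and at 245, 155, 111 and 304 CPM at MI day 3 (88.3 on replicate 5), with 2.16 (SE 0.69, adjusted p = 0.117). Ctsb, cathepsin B, lay between 283 and 1328 CPM (median 954) and at 1998, 1673, 1894 and 1556 CPM (4814 on replicate 5), without overlap and with 1.05 (SE 0.36, adjusted p = 0.15). Tnf had -1.70 (SE 0.56, adjusted p = 0.127) and Fth1, ferritin heavy chain, -1.20 (SE 0.42, adjusted p = 0.161). The members thus lay on both sides of 0.

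Against macrophage wells of the same plates, neutrophil wells were set apart by receptors and cytokines beyond both S100 genes. Only IR day 1 replicate 3 and MI day 3 replicates 1 to 4 held at least 5 wells of each class, with 146237 neutrophil and 1927393 macrophage UMIs in all. The wells had been chosen on this contrast, so the ratios are a description. The IR day 1 plate gave 41914 of these neutrophil UMIs and 112017 of these macrophage UMIs, a larger part of the former, so genes higher on that plate rank higher in the pooled ratios. The 20 genes with the largest ratio among those of at least 200 CPM in the neutrophil sum were higher in neutrophils on 5 of 5 plates, except Il1f9 (Il36g, interleukin-36 gamma) on 4.

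G0s2 led with 848 CPM in neutrophil wells and 2.08 CPM in macrophage wells, a log2 ratio of 8.51. Il1r2 had 2195 against 10.4 CPM (7.69) and Retnlg 834 against 5.71 CPM (7.13). Il1b lay at 9594 against 209.6 CPM (5.52), so that macrophage wells held it as well. These levels are of summed wells, and the macrophage sum was the deeper.

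Receptors among the 20 genes were Csf3r (log2 ratio 5.61), Cxcr2 (4.75), Trem1 (5.13) and Fpr2 (5.09), and Itgal (5.71) encodes the alpha chain of the integrin LFA-1. Secreted or granule proteins were Lcn2 (5.69), Retnlg and Csf1 (5.01), which encodes the macrophage growth factor M-CSF. Hdc (5.57), Ifitm1 (5.69), Slfn1 (5.05), Trim30b (5.64), H2-Q10 (5.66) and Gm5483 (6.56) completed the list with S100a8, S100a9, G0s2, Il1r2, Il1b and Il1f9. Ifitm1, Slfn1, Trim30b, H2-Q10 and Gm5483 belong to families of near copies, and their counts are uncertain.

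**Figure D5:**
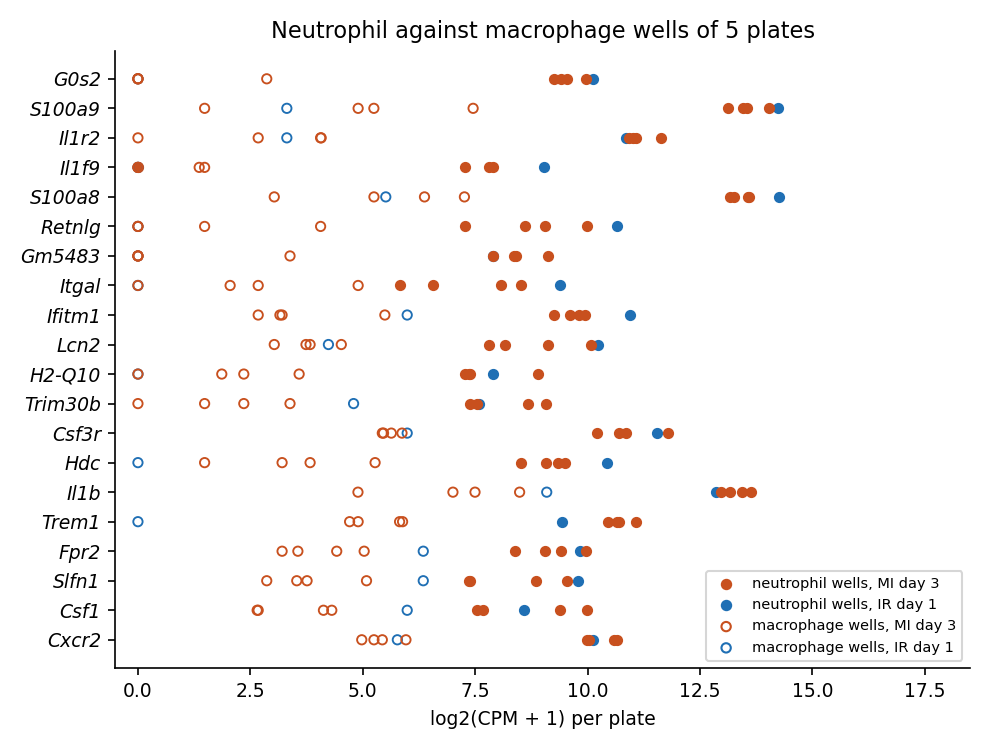
Level of the 20 genes with the largest neutrophil to macrophage ratio, as log2(CPM + 1), in neutrophil sums (filled) and macrophage sums (open) of 4 MI day 3 plates and 1 IR day 1 plate. Neutrophil sums lie to the right of the macrophage sums for each gene, apart from an Il1f9 value at 0.

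Whether the difference between MI day 3 and IR day 1 was unlike that of macrophages on the same plates was asked for 8440 genes on those 5 plates. A single IR day 1 plate entered, with no replicate of its own, so the fit compares that plate with the MI day 3 plates and not the conditions. It called 6 genes (0.0711%, edgeR with plate as a block, adjusted p under 0.05), with 447 at an unadjusted p under 0.05, while DESeq2 called 0, with 153. The counts behind these genes are therefore given as a description.

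Mmp9 lay in macrophage wells at 8.93 CPM, from 1 UMI, on the IR day 1 plate and at 212, 296, 234.5 and 239 CPM on MI day 3 replicates 1 to 4. MI day 3 replicate 5, which was not in this fit, held 12.97 CPM in its macrophage wells, from 2 UMIs. Neutrophil wells held Mmp9 at 3102 CPM on the IR day 1 plate and at 1549, 2045, 2396 and 3077 CPM on the MI day 3 plates. The macrophage sums of the IR day 1 plate and of MI day 3 replicate 5 held 112017 and 154166 UMIs in all, so both low values come from deep sums. Replicate 5 thus lay near the IR day 1 plate and apart from the other MI day 3 plates. No difference between the conditions is drawn from these values.

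The other 5 genes were Fabp4, Cryab, Eng, Cdk16 and Dab2. Fabp4 and Eng are known from endothelial cells and Cryab from cardiomyocytes, and the neutrophil wells of that IR day 1 plate held 42, 27 and 53 UMIs of them. Eng had 0 UMIs in the neutrophil wells of the MI day 3 plates. Cdk16, a cyclin-dependent kinase, had 12 UMIs in the neutrophil wells and 0 in the macrophage wells of the IR day 1 plate. Dab2, an endocytic adaptor of resident macrophages, had 0 UMIs in the neutrophil wells of the IR day 1 plate and 10, 12, 10 and 5 on the MI day 3 plates.

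With macrophage wells taken from 0.5% of the 8 genes, an alternative chosen after seeing the data, 4 MI and 6 IR plates entered, and 7 of 10789 genes (0.0649%) differed in the ratio of neutrophils to macrophages (edgeR, log2 differences of MI day 3 minus IR day 1). Mmp9 (-4.43, SE 0.67, adjusted p = 4.34e-07) and Fabp4 (-4.75, adjusted p = 0.00018) were among them, with Chi3l3 (-3.22, adjusted p = 1.46e-05), Ccl4 (-2.87, adjusted p = 0.0175), Ctsd (-2.28, adjusted p = 0.00916), Ccr2 (3.61, adjusted p = 0.00782) and Ms4a6d (4.07, adjusted p = 0.00595). Cdk16, Cryab, Dab2 and Eng did not pass there. MI day 3 replicate 5, with 4 neutrophil wells, was not among these plates. Its macrophage wells under the stricter limit held Mmp9 at 12.97 CPM, so no difference between the conditions is drawn for Mmp9. The wells between 0.5% and 1.5% of these genes include cells that the stricter limit left out of both classes.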

How the data were processed

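Single cells sorted into plates were sequenced by SORT-seq, and the deposited tables hold UMI counts per gene and well for 36 plates. Per the labels the authors mapped the reads with BWA to GRCm38 (mm10); the version is not given in the sources used here. The counts were not corrected for UMI collisions. Here 37 mitochondrial and 91 spike-in rows were left out, which kept 20720 genes. Wells of at least 1000 UMIs were classed by the S100 limit of 1% and the macrophage limit of 1.5%, and no doublet caller was run. The neutrophils, the gene lists and the tests were chosen with earlier results of these data known.

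The replicate was the plate. Shares were compared on plates with at least 10 wells by two-sided exact permutation tests, with Benjamini-Hochberg adjustment over 5 comparisons. For genes, counts of neutrophil wells were summed on plates with at least 5 such wells, genes with at least 20 UMIs and counts in at least 3 libraries were kept, the 10 genes of the rule were left out of the test, and edgeR 4.0.16 (R 4.3.3; quasi-likelihood test, TMM scaling, no block) was fitted across all genes, with an adjusted p of 0.05 as the threshold. The ratio to macrophages was fitted with plate as a block. CPM values were not TMM scaled. Each SE is that of the fitted log2 fold change. Alternatives were DESeq2 1.42.0, RLE scaling, other filters and limits, wells thinned to 1000 UMIs, a replicate block and leaving out each plate. The code was tested on simulated data. There the gene test called 3 of 43 genes changed 2-fold, 27 of 46 changed 4-fold and 39 of 45 changed 8-fold, with 7 of 2703 unchanged genes. A gene that did not pass may thus still differ, above all by 2-fold. The ratio fit recovered no planted change up to 16-fold, unless the dispersion was set lower, and then only a minor part.

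Named in the text were the given and listed neutrophil markers, for each gene comparison up to 10 higher and 10 lower called genes without overlap between plates, for each list up to 4 members with the smallest adjusted p, and the 20 genes with the largest ratio to macrophages among those of at least 200 CPM. Binomial intervals are exact (Clopper-Pearson, 95%), and the upper limit for 0 wells is 3 counts of the total. Symbols are those of the files. Ly6g and Ctsg were not analysed here. Python 3.11.15, scipy 1.17.1 and matplotlib 3.10.9 were used for the other steps.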

Additional observations from a re-analysis of the deposited data

Results flagged for a closer look

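Of 43 groups of plates checked for a plate apart from the rest by Dixon's test, 3 had one, and chance gives about 1 in 20. Bgn in the neutrophil wells of IR day 1 had 217.5 CPM on its highest plate and 90.08 CPM on the next. Rps21 at IR day 1 had 660.6 CPM on its highest plate and 395.7 CPM on the next. Slc7a11 at MI day 3 had 40.77 CPM on 1 plate and 0 on the other 3 in the test. In the fit of the ratio of neutrophils to macrophages, which holds 1 IR day 1 plate, the fitted log2 differences between the 4 MI day 3 plates and that plate were -10.66 for Cdk16, -5.72 for Cryab, 9.48 for Dab2, -10.52 for Eng, -5.01 for Fabp4 and -5.52 for Mmp9. Those of Cdk16, Dab2 and Eng rest on sums at or near 0, depend on how the fit treats 0 and are no bounds. No difference between the conditions is drawn from them.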

How the results depend on the processing

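The share comparisons of MI day 3 with IR day 1 kept their direction and threshold in all alternatives run, with -14.75 to -7.45 points of all wells. The test that called 32 genes called 12 with the filterByExpr filter (486 genes tested), 70 with no filter beyond 1 UMI, 99 with plates of at least 3 wells, 0 with wells of at least 2000 UMIs, 56 with macrophage genes under 0.5% and 8 to 49 on leaving out single plates, each the total of its own fit. RLE scaling gave 27 and DESeq2 34, where 977 adjusted p-values were not given. Replicate numbers did not pair the plates, since same-numbered plates correlated at -0.037 to 0.065 (4 pairs) and others at -0.066 to 0.064. With the replicate block 18 genes passed, and 40 with plates of at least 3 wells beside it, chosen after seeing the data. Thinning moved the median log2 fold change of the tested genes to -0.18. Over 800 values of the called genes in the alternatives, 562 passed, 238 did not and 0 changed sign, and 0 genes passed in every one that tested them. For the ratio to macrophages, with 6 calls, the totals were 0 by DESeq2 (153 at an unadjusted p under 0.05), 0 with thinned wells (56 at an unadjusted p under 0.05), 3 with plates of at least 3 wells and 4 to 10 on leaving out MI day 3 plates. Some values that did not pass changed sign. Il1r2 was 0.15 with the replicate block. Csf3r was 0.05 with wells of at least 2000 UMIs and -0.50 to 0.08 on leaving out plates. Slpi was 0.01 with RLE scaling, 0.0 with DESeq2, 0.12 with wells of at least 2000 UMIs, 0.06 with macrophage genes under 0.5%, 0.36 with thinned wells, 0.18 with wells under 0.5% of the other macrophage markers and -0.61 to 0.29 on leaving out plates. The causes of these changes were not tested. Gene tests with at least 10 wells per plate or an S100 limit of 3%, and the ratio without IR day 1 replicate 3, could not be fitted. With 12635 to 41914 neutrophil UMIs per plate, a gene at 0 is only shown to lie below the floor of 3 counts over a group.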

Other observations

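Ribosomal protein genes, a group chosen by symbol after the values were seen, were compared between MI day 3 and IR day 1 gene by gene, with no test of the group. All 68 tested had a log2 fold change above 0, with a median of 0.81, and 26 had an unadjusted p under 0.05, next to 11.9% of all genes tested, while 3 (Rpl4, Rps21 and Rpsa) passed the edgeR test over all genes. Of all genes tested, 0.393% passed as higher at MI day 3. Together the ribosomal protein genes made up 2.71% of neutrophil UMIs at IR day 1 and 4.55% at MI day 3. The median was 0.86 with RLE scaling and 0.88 with DESeq2, and 65 of 68 lay above 0 with wells of at least 2000 UMIs, where it was 0.57. Without MI day 3 replicate 3 or 4, 0 of these genes passed. The mitochondrial share and the depth of the wells, given above, also differed between both groups, and their part in this difference was not tested.

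Of the primary granule genes, Elane had 0 UMIs in the neutrophil wells of both groups, Mpo lay at 4.34 CPM at IR day 1 and 0 at MI day 3, and Prtn3 lay at 8.68 CPM and 28.8 CPM, none of which passed the count filter for the test.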
